A study of Mus musculus with 23 samples.

Results

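The 10 genes described here encode lysosomal proteases (Ctsb, Ctsd, Ctsl, Ctsk, Ctsz, Lgmn and Dpp7), lysosomal membrane proteins (Lamp1 and Lamp2) and a transcription factor of lysosomal genes (Tfeb). They were taken by symbol from a table of 48397 gene symbols, and all 10 held enough counts to be tested in every comparison. RNA was sequenced from cells sorted out of breast tumours that FVB mice, exercised or sedentary, bore from the line Met1-iRFP. The parent line, Met-1, comes from a mammary tumour of an MMTV-PyMT mouse, and the near-infrared fluorescence of iRFP was the basis of the sort. The 4 groups are iRFP-positive cancer cells of sedentary mice (8 libraries) and of exercised mice (7 libraries), and iRFP-negative cells of the tumour microenvironment (TME) of sedentary mice (4 libraries) and of exercised mice (4 libraries). All groups rest on this single tumour line, which both treatments carried. The sources used here give neither the form and length of the exercise nor the age of the mice, and they do not say that each library is a separate mouse. The p-values therefore speak of differences between libraries, whose spread may in part be technical.

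Lysosomes are acidic organelles in which proteins taken up by endocytosis or delivered by autophagy are broken down. Cathepsins are made as inactive precursors, carried to the lysosome by mannose 6-phosphate receptors and activated there by cleavage. Some are also secreted by tumour cells and by macrophages, where they act on the extracellular matrix. LAMP1 and LAMP2 are heavily glycosylated proteins that line the inner face of the lysosomal membrane. TFEB is held in the cytoplasm by the kinase mTORC1, and in the nucleus it binds a palindromic E-box, CACGTG, in the promoters of many lysosomal genes.

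The promoters that hold this E-box are shown because Tfeb is 1 of the 10 genes and the other 9 belong to the class it acts on. RefSeq windows (GRCm38.p6, from 250 bases before to 50 after each annotated start, 300 bases in all) were found for 9 of the 10 genes, in 12 windows, with none for Ctsb. CACGTG, which reads the same on both strands, occurred in 5 of the 12 windows, or 41.7%, against 7.15% of all 32851 windows of the same length. TCACGTG, searched on both strands and overlapping the shorter motif, occurred in 4 of the 12 windows, or 33.3%, against 3.77%. A palindrome of 10 bases with CACGTG at its centre was also searched, and it occurred in 0 of the 12 windows, against 0.326%. At so low a share, 12 windows cannot show a lack of it. Lamp1 holds 4 copies of CACGTG within 61 bases of its start, which is the most among these windows. The stretches upstream of the RefSeq start that hold the matches follow, 5′ to 3′ on the strand of the gene, with the matches in capitals.
Lamp1 (chr8:13159080-13159160, plus strand): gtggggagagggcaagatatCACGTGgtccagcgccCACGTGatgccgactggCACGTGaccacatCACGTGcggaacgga
Ctsd (chr7:142387900-142388077, minus strand): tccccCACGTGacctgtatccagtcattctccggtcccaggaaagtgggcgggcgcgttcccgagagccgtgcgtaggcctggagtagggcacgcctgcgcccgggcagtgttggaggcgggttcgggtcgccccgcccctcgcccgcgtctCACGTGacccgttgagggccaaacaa
Dpp7 (chr2:25356380-25356425, minus strand): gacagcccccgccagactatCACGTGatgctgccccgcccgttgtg
Lgmn, the second of 2 starts (chr12:102439116-102439161, minus strand): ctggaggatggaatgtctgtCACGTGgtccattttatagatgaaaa
Ctsl (chr13:64370731-64370770, minus strand): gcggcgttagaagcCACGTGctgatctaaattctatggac
The windows of Ctsk, Ctsz, Lamp2, the first start of Lgmn and the 3 starts of Tfeb do not hold these letters. The gene positions given further on come from another annotation, whose starts can differ. By these positions the stretches of Ctsl and of the second start of Lgmn lie inside the gene, as does part of that of Ctsd. A match is a description of the sequence, and binding was not measured.

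**Figure D1:**
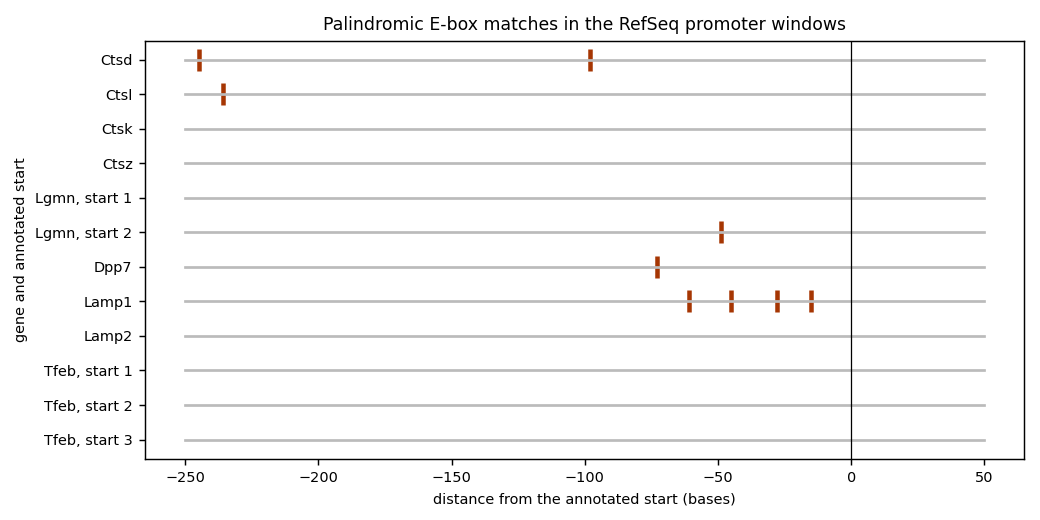
Positions of CACGTG in the promoter windows of the 9 genes with a RefSeq window; the horizontal axis is the distance from the annotated start in bases, each grey line is 1 window and each mark is 1 match. Lamp1 has 4 matches close to its start, Ctsd has 2, and Dpp7, Ctsl and the second start of Lgmn have 1 each.

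Total counts per library were 15924340 to 37388479. The mitochondrial share was high in a pair of sedentary TME libraries, number 4 (42.2%) and number 6 (14.5%), and it ran from 1.86% to 8.63% elsewhere. The summed level of 12 macrophage markers was 68.5 to 185 CPM (the share of a library held by a gene, on the usual counts-per-million scale after TMM scaling) in the cancer libraries and 733 to 3770 in the TME libraries, without overlap. Epithelial markers did not separate the sorts: the sum of 8 was 321 to 539 CPM in sedentary cancer cells and 302 to 523 in sedentary TME cells. Most of it came from Wfdc2 (331 ± 61.8 and 361 ± 79 CPM; SD, n = 8 and 4), while the keratin genes Krt8 (0.289 ± 0.181 and 0.354 ± 0.393) and Krt19 (0.0297 ± 0.058 and 0.221 ± 0.201) were near 0. Another keratin gene, Krt18, stood at 92.7 ± 18.2 and 74 ± 20.2 CPM. Cdh1, which encodes E-cadherin, was the only epithelial marker called between the sorts, and it was higher in TME cells (0.561 ± 0.541 and 2.90 ± 0.42 CPM in the sedentary groups, -2.81 ± 0.48 log2, edgeR adjusted p = 2.87e-05). Exercised TME libraries 8 and 9 stood apart, with macrophage markers at 3320 and 3770 CPM against 733 and 871 in libraries 7 and 10 and 863 to 1020 in the sedentary TME libraries. The exercise results in TME cells are given with and without them for the 10 genes and the list medians. So are the differences between the effects for Dpp7, Ctsb, Lamp1, Lgmn, Ctsz and Tfeb and for the median of the 10.

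Cancer and TME cells differed in 9 of the 10 genes, with 7 higher in TME cells and 2 higher in cancer cells (edgeR's quasi-likelihood test, all 23 libraries, mean of both treatments, Benjamini-Hochberg adjustment). Of all 17503 genes tested, 52.6% were called in this comparison, with 27.3% higher and 25.3% lower in cancer cells, so that a call alone is common. The median difference of the 10 genes, cancer minus TME, was -0.57 log2, against 0.007 over all genes tested. The differences of Ctsk, Dpp7 and Lgmn were the widest of the 10, Ctsl and Lamp2 lay the other way, and Lamp1 did not pass the threshold. The level of a gene in bulk RNA reflects both how many cells of a type are present and how much of its RNA each holds, and these cannot be told apart here. In 3 of the 10 genes, Ctsk, Ctsz and Dpp7, no cancer library overlapped any TME library, as in 9.54% of all genes tested.

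Compared per kilobase of annotated exonic sequence, the level was highest for Lgmn in each sort. In sedentary cancer cells the mean was 197 ± 29.2 CPM per kilobase for Lgmn, 162 ± 16.5 for Ctsb, 150 ± 11.1 for Lamp1, 141 ± 28.5 for Ctsd, 133 ± 23 for Ctsz and 113 ± 14.2 for Ctsl (SD, n = 8). Neighbours in this order from Ctsb to Ctsl lay within 1 SD of each other. Lamp2 followed at 71.7 ± 5.53, and the lowest were Tfeb at 3.70 ± 1.17, Ctsk at 2.58 ± 0.606 and Dpp7 at 1.54 ± 0.254. In sedentary TME cells (n = 4) Lgmn stood at 321 ± 34.2, Ctsd at 211 ± 18.4, Ctsz at 191 ± 4.67, Ctsb at 176 ± 13.2, Lamp1 at 144 ± 6.92 and Ctsl at 82.1 ± 3.63 CPM per kilobase. Ctsk stood at 10.6 ± 3.45, above Tfeb at 5.43 ± 0.497 and Dpp7 at 3.67 ± 0.555. The genes thus fell into 7 abundant ones and 3 scarce ones in either sort. The exonic length counts every annotated transcript, which lowers these values most for genes with long alternative exons.

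Ctsk encodes cathepsin K, a collagen-degrading cysteine protease known from osteoclasts and fibroblasts. Its level was 3, 3.73 and 5.48 CPM (lowest, median, highest) in sedentary cancer cells and 2.33, 3.53 and 4.29 in exercised cancer cells. In sedentary TME libraries 4, 6, 9 and 10 it was 8.99, 21.6, 16.5 and 16.8, and in exercised TME libraries 7, 8, 9 and 10 it was 20.3, 16.6, 38.6 and 12.5 CPM. Every TME library lay above every cancer library, and the difference was -2.37 ± 0.17 log2 (SE; adjusted p = 1.22e-11, edgeR). Of 6 osteoclast markers, Calcr, the calcitonin receptor, had at most 10 counts in any library and Oscar at most 16. The means in sedentary cancer and sedentary TME cells were 12.1 ± 2.72 and 26.9 ± 4.13 CPM for Acp5 and 0.234 ± 0.193 and 3.10 ± 1.91 for Dcstamp. They were 0.27 ± 0.161 and 1.39 ± 0.591 for Ocstamp and 36.2 ± 6.02 and 38.1 ± 3.55 for Nfatc1. Of the 4 markers tested between the sorts, 3 were called lower in cancer cells and 0 higher, where 25.3% of all genes were lower. The summed level of 8 fibroblast markers was 1460 to 2780 CPM in sedentary TME cells and 1040 to 1260 in sedentary cancer cells. Pdgfra, Pdgfrb, Postn and Dcn averaged 393, 262, 198 and 197 CPM in sedentary cancer cells and 334, 260, 254 and 229 in sedentary TME cells. Col1a1, Col1a2, Col3a1 and Lum were further apart, at 24.8, 10.5, 31.1 and 0.322 against 315, 280, 263 and 4.42 CPM. The part of cells with either set of markers in the difference of Ctsk was not tested.

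Ctsb, Ctsl and Ctsz encode cysteine cathepsins of broad tissue distribution, of which cathepsin B also trims peptides from the carboxyl end and cathepsin Z (also called X) is a carboxypeptidase. Ctsz stood at 134, 191 and 233 CPM in sedentary and 172, 195 and 236 in exercised cancer cells (lowest, median, highest). It was 272, 280, 267 and 280 in sedentary TME libraries 4, 6, 9 and 10 and 266, 400, 388 and 281 in exercised TME libraries 7, 8, 9 and 10. All TME libraries exceeded all cancer libraries, by a difference of -0.64 ± 0.09 log2 (edgeR adjusted p = 6.09e-07). Ctsl was the only protease of the 7 called higher in cancer cells, at 572, 726 and 865 CPM in sedentary cancer cells against 501, 554, 530 and 546 in sedentary TME libraries 4, 6, 9 and 10. These groups did not overlap, and over both treatments the difference was 0.37 ± 0.07 log2 (edgeR adjusted p = 9.86e-05). In exercised mice alone it was 0.28 ± 0.10 (edgeR adjusted p = 0.0332), a call that was lost in 15 of 20 alternatives, DESeq2 among them (0.22, adjusted p = 0.0865).

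Ctsb had the highest CPM of the 10 genes in each group, and over both treatments it was higher in TME cells (-0.46 ± 0.11 log2, edgeR adjusted p = 0.000516), or -0.19 ± 0.08 (adjusted p = 0.0476) without exercised TME libraries 8 and 9. It was 853, 966 and 1120 CPM in sedentary and 779, 937 and 1050 in exercised cancer cells (lowest, median, highest). In TME cells it was 949, 1130, 1100 and 1090 in sedentary libraries 4, 6, 9 and 10, and 993, 2090, 2260 and 1150 in exercised libraries 7, 8, 9 and 10. The sedentary groups overlapped and did not pass the threshold (-0.12 ± 0.15, edgeR adjusted p = 0.539), while in exercised mice the difference was -0.80 ± 0.15 (adjusted p = 0.000108). Without exercised TME libraries 8 and 9 the latter was -0.25 ± 0.13 (adjusted p = 0.149). How far the treatments differ in this respect is the difference between the exercise effects, given further on.

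Ctsd encodes cathepsin D, an aspartic protease and a major endopeptidase of the lysosome. It stood at 221, 332 and 427 CPM in sedentary cancer cells, and at 261, 295 and 509 in exercised cancer cells. In TME cells it was 477, 541, 445 and 522 in sedentary libraries 4, 6, 9 and 10 and 557, 524, 471 and 521 in exercised libraries 7, 8, 9 and 10. The sedentary groups did not overlap, and 1 exercised cancer library, number 10, reached the TME range. The difference was -0.63 ± 0.11 log2 (edgeR adjusted p = 1.33e-05), and it was nearly as wide in sedentary (-0.59 ± 0.15) as in exercised mice (-0.68 ± 0.15).

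Lgmn encodes legumain, an asparaginyl endopeptidase that cleaves cathepsins and is abundant in tissue macrophages. Its level was 347, 439 and 553 CPM in sedentary and 293, 397 and 495 in exercised cancer cells. In sedentary TME libraries 4, 6, 9 and 10 it was 668, 779, 842 and 695, and in exercised TME libraries 7, 8, 9 and 10 it was 544, 1660, 2090 and 704 CPM. The lowest TME library lay just under the highest cancer library, which is of the other treatment, and within each treatment the sorts did not overlap. The difference was -0.71 ± 0.23 log2 in sedentary mice (edgeR adjusted p = 0.0183) and -1.66 ± 0.24 in exercised mice (adjusted p = 8.99e-06). The sedentary call was lost in 3 of 20 alternatives, among them without sedentary TME library 9 (-0.66, adjusted p = 0.0557) and without libraries 4 and 6 (-0.80, adjusted p = 0.076). Over both treatments it was -1.18 ± 0.17 (adjusted p = 2.75e-06). Without exercised TME libraries 8 and 9 it was -0.71 ± 0.10 over both treatments and -0.70 ± 0.16 in exercised mice (adjusted p = 9.88e-07 and 0.00125).

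Dpp7 encodes a dipeptidyl peptidase of the lysosome and other vesicles that removes dipeptides after proline or alanine. It stood at 4.14, 5.27 and 6.70 CPM in sedentary and 3.45, 4.19 and 4.84 in exercised cancer cells, from 68 to 140 counts a library. In TME cells it was 14.7, 12.5, 10.4 and 11.3 in sedentary libraries 4, 6, 9 and 10 and 15, 31.4, 33.2 and 11.1 in exercised libraries 7, 8, 9 and 10. No cancer library reached a TME library, and the difference was -1.86 ± 0.15 log2 (edgeR adjusted p = 5.94e-11). It was -1.24 ± 0.21 in sedentary and -2.49 ± 0.21 in exercised mice, the latter -1.73 ± 0.19 without exercised TME libraries 8 and 9.

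Of the LAMP genes, Lamp2 passed between the sorts and Lamp1 did not. Lamp2 was higher in cancer cells, at 622, 702 and 770 CPM in sedentary and 593, 668 and 747 in exercised libraries, against 351, 438, 473 and 479 in sedentary TME libraries 4, 6, 9 and 10. In exercised TME libraries 7, 8, 9 and 10 it was 370, 501, 611 and 501, of which library 9 alone entered the range of the cancer cells. The difference was 0.54 ± 0.08 log2 (edgeR adjusted p = 1.28e-06). Lamp1 was 357, 400 and 441 CPM in sedentary and 299, 375 and 392 in exercised cancer cells. It was 370, 391, 369 and 408 in sedentary TME libraries 4, 6, 9 and 10 and 332, 495, 630 and 342 in exercised TME libraries 7, 8, 9 and 10. All 4 groups of Lamp1 overlapped, and the difference over both treatments did not pass the threshold (-0.14 ± 0.09, edgeR adjusted p = 0.204). In exercised mice it passed (-0.33 ± 0.13, adjusted p = 0.0373), and without exercised TME libraries 8 and 9 it was 0.04 (adjusted p = 0.834). Of 20 alternatives, 5 others lost this call with the sign unchanged.

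Tfeb was scarce in both sorts and higher in TME cells. It stood at 13.2, 20.1 and 35.3 CPM in sedentary and 14.4, 20.5 and 33.3 in exercised cancer cells, and at 29.7, 28.0, 34.6 and 30.8 in sedentary TME libraries 4, 6, 9 and 10. In exercised TME libraries 7, 8, 9 and 10 it was 30.9, 27.1, 25.8 and 34.3 CPM. The highest library of each cancer group reached the TME values, and the other cancer libraries lay below all of them. The difference was -0.51 ± 0.14 log2 (edgeR adjusted p = 0.00252), passing in sedentary mice (-0.55 ± 0.19, adjusted p = 0.0216) and not in exercised mice (-0.47 ± 0.20, adjusted p = 0.0608). Without sedentary TME library 9 the sedentary call was lost (-0.50, adjusted p = 0.0713), as it was without libraries 4 and 6 (-0.69, adjusted p = 0.0512). The exercised difference passed in 8 of 20 alternatives. Among them were the fits without exercised cancer library 10 (-0.61, adjusted p = 0.00799) and without exercised TME library 9 (-0.58, adjusted p = 0.0436).

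In sedentary mice 8 of the 10 genes were called between the sorts (2 higher and 6 lower in cancer cells) against 40.8% of all genes tested (21.0% higher and 19.8% lower). In exercised mice 9 of the 10 were called (2 higher and 7 lower), against 36.9% of all genes (19.5% higher and 17.3% lower). Without exercised TME libraries 8 and 9 it was 6 of the 10, against 5345 of all 18433 genes tested. Ordered by mean level, Ctsk, Dpp7, Lgmn, Ctsz, Ctsb and Ctsd ran from the cancer groups at the bottom through sedentary to exercised TME cells. With exercised TME libraries 8 and 9 left out, the last step was reversed for Lgmn (-0.25 log2), and the other values are given further on. For Ctsl and Lamp2 the order was reversed by sort, with sedentary TME cells lowest and sedentary cancer cells highest. Within each sort the sedentary and exercised groups overlapped for all 10 genes.

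**Figure D2:**
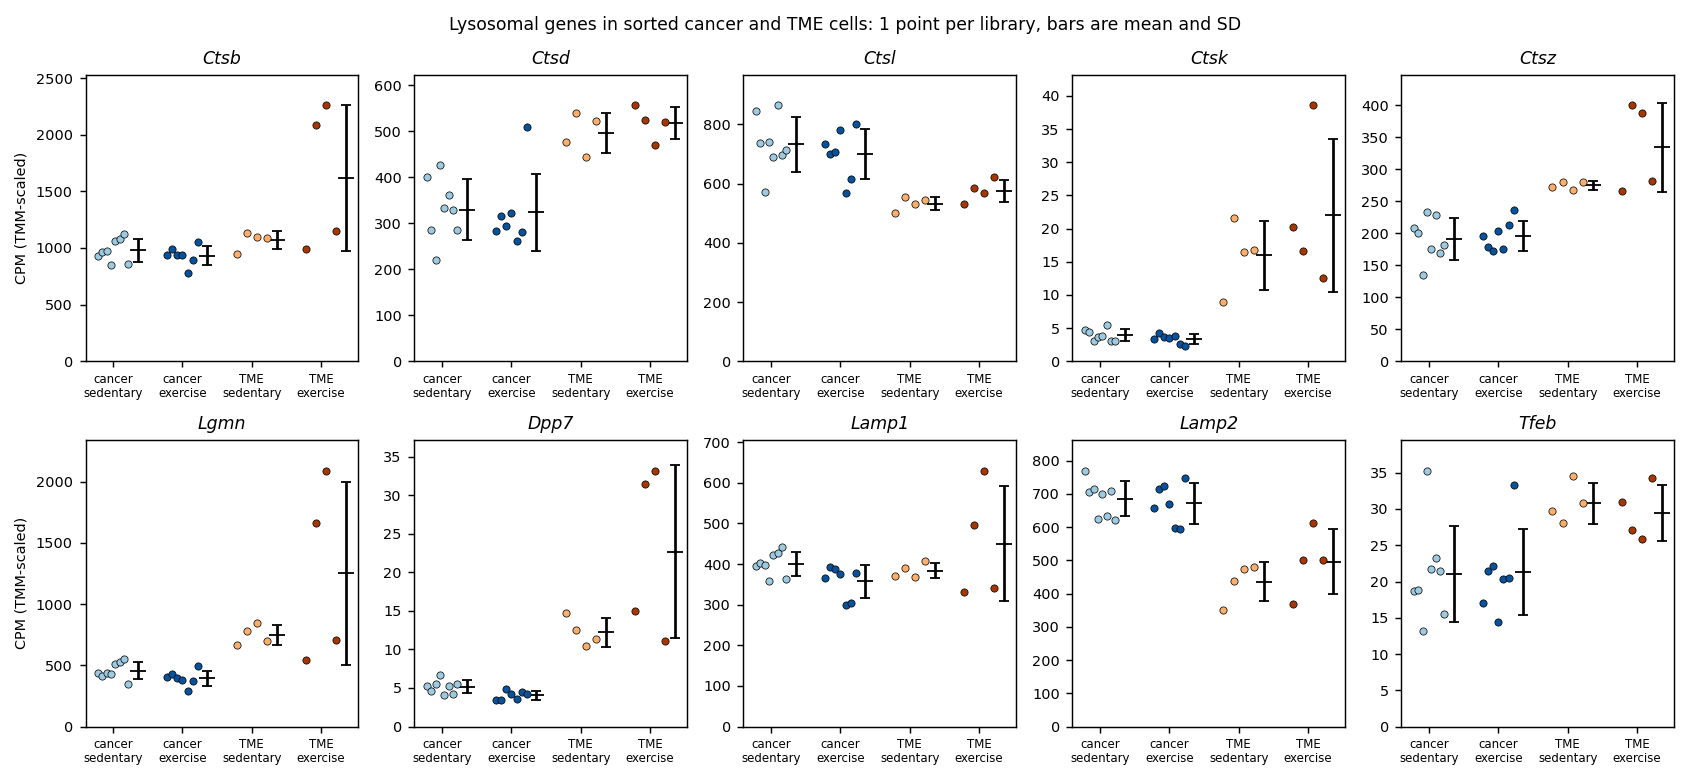
Level of each of the 10 genes in every library, in TMM-scaled CPM on a linear axis from 0, by group; each point is 1 library and the black bar is the mean with its SD (8, 7, 4 and 4 libraries). Ctsk, Ctsz and Dpp7 show no overlap of the sorts, and in the exercised TME group Ctsb, Lgmn, Dpp7 and Ctsz split into a high and a low pair of libraries.

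Exercise in cancer cells gave differences below 0 for 9 of the 10 genes, all small, where 47.4% of all genes tested lay above 0. None of the 10 passed the threshold. edgeR's quasi-likelihood test on the 15 cancer libraries called 0 of the 10 and 0% of 15096 genes tested, with 3 of the 10 at an unadjusted p under 0.05, against 12.6% of all genes, and DESeq2 and limma voom with quality weights also called 0 of the 10. The median over the 10 genes was -0.10 log2, against -0.012 over all genes tested. The 3 with the smallest p were Dpp7, Lamp1 and Lgmn. Dpp7 averaged 5.15 ± 0.848 CPM in sedentary (SD, n = 8) and 4.04 ± 0.54 in exercised cancer cells (n = 7), a difference of -0.39 ± 0.14 log2 (adjusted p = 0.282). All 7 exercised libraries lay below the sedentary mean, and 3 of them lay below every sedentary library.

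Lamp1 averaged 401 ± 29.7 and 357 ± 39.6 CPM in the same groups, a difference of -0.20 ± 0.08 log2 (edgeR adjusted p = 0.292) with 7 of 7 exercised libraries below the sedentary mean. Lgmn averaged 457 ± 67.9 and 395 ± 60.7 CPM (-0.25 ± 0.11, adjusted p = 0.350), and exercised library 10 alone lay above the sedentary mean. Exercised and sedentary libraries overlapped for each of these 3 genes. Of the other proteases, Ctsk had -0.26 ± 0.18, Ctsb -0.11 ± 0.08, Ctsl -0.10 ± 0.09, Ctsd -0.06 ± 0.15 and Ctsz 0.00 ± 0.10, and Lamp2 had -0.06 ± 0.07. The level of Tfeb differed by -0.02 ± 0.19 log2, with means of 21.0 ± 6.65 and 21.3 ± 5.95 CPM.

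Exercise in TME cells gave differences above 0 for 9 of the 10 genes, with Tfeb as the exception, against 51.3% of all genes tested. Again none of the 10 passed. edgeR's test on the 8 TME libraries called 0 of the 10 and 0% of 16273 genes, with 2 of the 10 at an unadjusted p under 0.05, against 8.44% of all genes, and DESeq2 and limma voom called 0 of the 10. The median over the 10 genes was 0.23 log2, against 0.009 over all genes tested. Without libraries 8 and 9 it was 0.03 against 0.002, and 8 of the 10 genes were above 0. In that fit 0 of the 10 stood at an unadjusted p under 0.05, against 2.73% of all genes. The widest difference was that of Dpp7, from 12.2 ± 1.85 CPM in sedentary to 22.7 ± 11.2 in exercised TME cells (SD, n = 4 each; 0.87 ± 0.32 log2, adjusted p = 0.586). Lgmn went from 746 ± 79.5 to 1250 ± 746 CPM (0.72 ± 0.39, adjusted p = 0.603) and Ctsb from 1070 ± 79.7 to 1620 ± 645 (0.59 ± 0.24, adjusted p = 0.586). In each of these 3 genes the SD of the exercised group was several times that of the sedentary group.

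The remaining values in TME cells were 0.43 ± 0.36 log2 for Ctsk, 0.26 ± 0.14 for Ctsz, 0.21 ± 0.18 for Lamp1, 0.17 ± 0.16 for Lamp2, 0.10 ± 0.11 for Ctsl, 0.05 ± 0.12 for Ctsd and -0.07 ± 0.14 for Tfeb. Libraries 8 and 9 were the highest pair of the exercised TME group for Ctsb, Lgmn, Dpp7, Ctsz and Lamp1, while libraries 7 and 10 lay within or below the sedentary range for Lgmn and Lamp1. Without libraries 8 and 9 the difference was 0.11 ± 0.24 log2 for Dpp7, 0.02 ± 0.15 for Ctsb, 0.00 ± 0.13 for Ctsz, -0.25 ± 0.17 for Lgmn and -0.18 ± 0.14 for Lamp1, with 2 exercised libraries left. Ctsk then had 0.04 ± 0.30 and Lamp2 0.01 ± 0.17, and leaving out library 9 alone took Ctsk from 0.43 to 0.03 ± 0.27. Ctsl (0.12 ± 0.14) and Ctsd (0.13 ± 0.15) had values close to those with all libraries, and for neither gene were libraries 8 and 9 the highest pair. Without sedentary TME libraries 4 and 6, those with a high mitochondrial share, Dpp7 had 1.07, Lgmn 0.70 and Ctsb 0.57.

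The sign of the exercise effect was opposite in the sorts for 8 of the 10 genes, below 0 in cancer cells and above 0 in TME cells. Of 14775 genes tested in both sorts, 21.6% had this combination of signs. The 2 exceptions were Ctsz, at 0.00 in cancer cells, and Tfeb, below 0 in both. Without exercised TME libraries 8 and 9 the count was 7 of 10, against 24.9% of 14906 genes: Lgmn (-0.25) and Lamp1 (-0.18) were then below 0 in TME cells, Tfeb (0.09) was above 0, and Ctsb (0.02) and Lamp2 (0.01) were close to 0. The difference itself, the effect in TME cells minus the effect in cancer cells fitted on all 23 libraries, passed for 0 of the 10 genes and for 0% of 17503 genes by edgeR. At an unadjusted p under 0.05 stood 4 of the 10, against 7.52% of all genes. Of the 10, limma voom called 2 and DESeq2 0, and of all genes they called 40 and 2. The median of the 10 was 0.32 log2, against 0.012 over all genes tested, and 0.10 against 0.004 without exercised TME libraries 8 and 9.

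Dpp7 had the widest difference between the effects, 1.25 ± 0.30 log2 (edgeR adjusted p = 0.464), and the ninth smallest p of all genes tested. Lgmn followed with 0.95 ± 0.34 (adjusted p = 0.577), Ctsb with 0.68 ± 0.21 (adjusted p = 0.542) and Lamp1 with 0.39 ± 0.18 (adjusted p = 0.626). The 2 calls of limma voom were Dpp7 (1.51 ± 0.30, adjusted p = 0.0352) and Ctsb (0.85 ± 0.17, adjusted p = 0.0379), and edgeR called the same genes when exercised TME library 7 was left out (1.45 and 0.90, each at adjusted p = 0.0379). The adjusted p of Dpp7 ran from 0.0352 to 0.974 over the alternatives tried, and that of Ctsb from 0.0379 to 0.987. Without exercised TME libraries 8 and 9 the difference was 0.47 ± 0.26 for Dpp7, 0.11 ± 0.16 for Ctsb, 0.00 ± 0.15 for Lamp1 and -0.02 ± 0.21 for Lgmn. The rest were 0.68 ± 0.35 for Ctsk, 0.24 ± 0.18 for Ctsz, 0.22 ± 0.15 for Lamp2, 0.18 ± 0.14 for Ctsl, 0.09 ± 0.22 for Ctsd and -0.08 ± 0.28 for Tfeb.

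**Figure D3:**
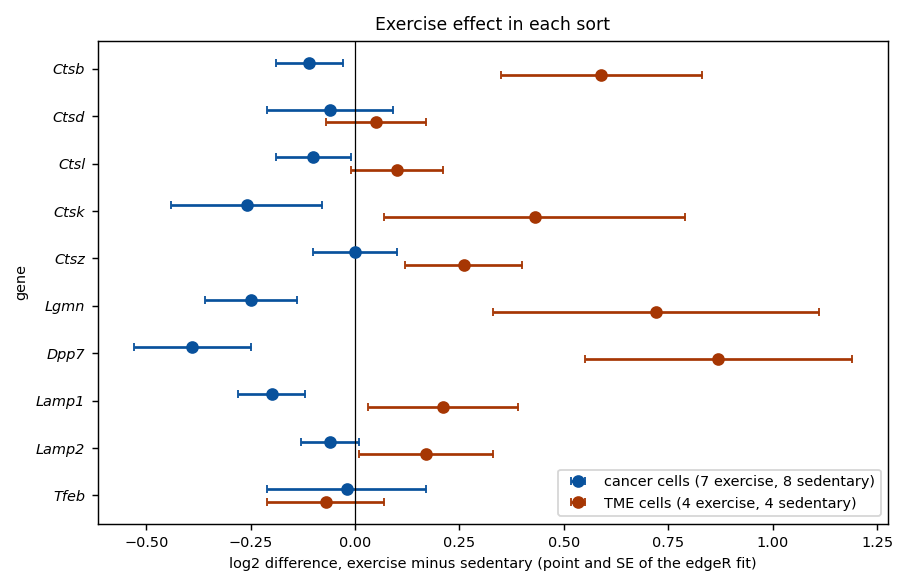
Exercise effect on each of the 10 genes in cancer cells (blue) and TME cells (brown), as the log2 difference of exercise minus sedentary with the SE of the edgeR fit (derived from its test). Cancer values run from -0.39 to 0.00 and TME values from -0.07 to 0.87, with the widest separation for Dpp7.

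Markers of macrophages and of other leukocytes moved with the proteases that were high in exercised TME libraries 8 and 9. The summed level of the 12 macrophage markers was 863, 895, 1020 and 913 CPM in sedentary TME libraries 4, 6, 9 and 10, and 733, 3320, 3770 and 871 in exercised libraries 7, 8, 9 and 10. The same order was seen for 8 pan-leukocyte markers, at 342 to 447 CPM in the sedentary group and 258, 1370, 1430 and 371 in exercised libraries 7, 8, 9 and 10. The sum of 8 T and NK cell markers was 4.65 to 18.4 CPM in the sedentary group and 4.31, 53, 36.3 and 9.54 in the exercised libraries, and that of 7 neutrophil markers was 72.7 to 137 and 126, 193, 216 and 119. Of the macrophage markers 11 of 12 had an exercise difference above 0 in TME cells (median 1.09 log2). edgeR called 0 of the 12, with 5 at an unadjusted p under 0.05, against 8.44% of all genes. DESeq2 and limma voom also called 0. Without libraries 8 and 9, 3 of 12 were above 0 (median -0.20 log2), with 0 called. In that fit 6 were at an unadjusted p under 0.05, against 2.73% of all genes. With all libraries none of the 12 was at 0 counts in any library. Adgre1, which encodes F4/80, averaged 22.5 ± 3.92 CPM in sedentary and 70.8 ± 57.5 in exercised TME cells (SD, n = 4 each). The part of macrophages or other leukocytes in the levels of Ctsb, Lgmn, Dpp7, Ctsz and Lamp1 was not tested. Ctsd and Tfeb did not share this order, with 524 and 471 CPM of Ctsd and 27.1 and 25.8 CPM of Tfeb in libraries 8 and 9.

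In the cancer sort the same markers were low, at 68.5 to 109 CPM in sedentary and 94.1 to 185 in exercised libraries. Their exercise differences were above 0 for 11 of 12 markers (median 0.56 log2), while Dpp7, Lgmn and Lamp1 lay below 0 in these libraries. edgeR called 0 of the 12 markers, with 6 at an unadjusted p under 0.05, against 12.6% of all genes. DESeq2 called 2 of the markers and limma voom 1, against 161 and 197 of all 15096 genes. Exercised cancer library 8 had the highest macrophage sum of its sort, 185 CPM, and held 371 CPM of Lgmn, 895 of Ctsb and 303 of Lamp1, each under the mean of its group. In the same library Ctsz (213 CPM) and Dpp7 (4.47) lay above the means of their group (196 and 4.04), each second highest of 7.

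**Figure D4:**
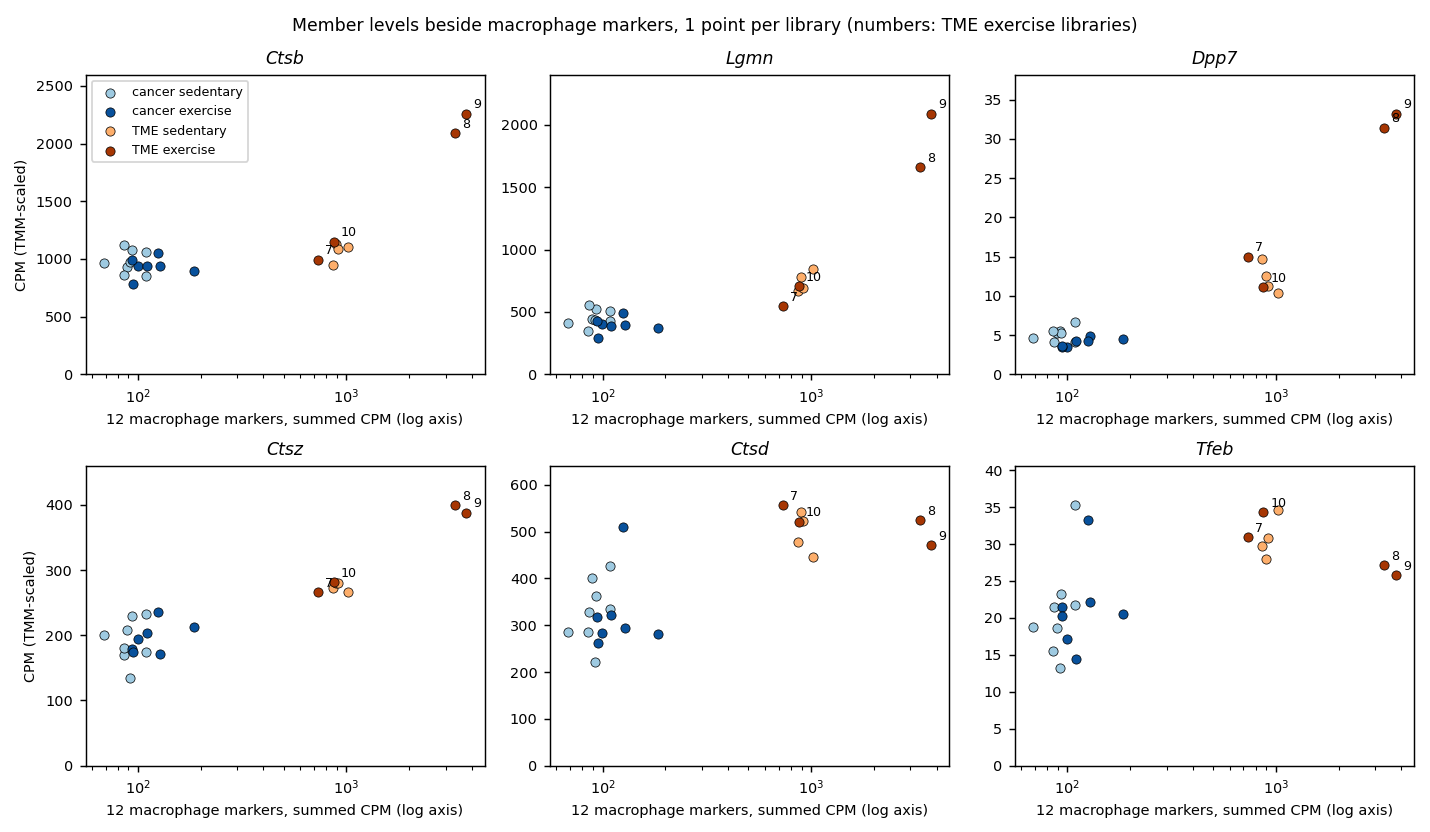
Level of 6 of the genes (vertical, TMM-scaled CPM, linear axis from 0) beside the summed level of 12 macrophage markers (horizontal, log axis), 1 point per library, with the numbers of the exercised TME libraries. Libraries 8 and 9 lie apart on both axes for Ctsb, Lgmn, Dpp7 and Ctsz, and on the horizontal axis only for Ctsd and Tfeb.

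The wider set of lysosomal genes was read from 9 lists, in which edgeR called 0 genes under exercise in cancer cells, 0 in TME cells and 0 in the difference between the effects. At an unadjusted p under 0.05 stood 21 of 149 tested genes in cancer cells, 14 of 156 in TME cells and 26 of 157 in the difference, where the shares of all genes were 12.6%, 8.44% and 7.52%. DESeq2 called 2 of the list genes in cancer cells (Flcn and Lamtor3) and 0 in TME cells and in the difference. Over all genes it called 161 of 15096 in cancer cells, 41 of 16273 in TME cells and 2 of 17503 in the difference. By limma voom 3 list genes were called in cancer cells (Ap1g1, Flcn and Lamtor3), 0 in TME cells and 1 in the difference (Man2b1). Over all genes it called 197, 0 and 40 in the same order. Without exercised TME libraries 8 and 9, edgeR had 3 of 156 genes at an unadjusted p under 0.05 in TME cells and 10 of 157 in the difference, against 2.73% and 4.99% of all genes. In TME cells the median exercise difference was 0.39 log2 over 13 other lysosomal proteases (12 above 0), 0.38 over 14 lipid hydrolases and their activators (10 above 0), 0.12 over 19 subunits of the V-ATPase proton pump (15 above 0) and 0.07 over 22 glycosidases and sulfatases (15 above 0). It was 0.09 over 20 MiT/TFE factors and regulators, 0.06 over 16 genes of enzyme sorting, 0.04 over 24 other membrane proteins, -0.02 over 20 autophagy genes and -0.02 over 8 cathepsin inhibitors, against 0.009 over all genes. When exercised TME libraries 8 and 9 were left out, the medians in TME cells were -0.07 for the other proteases, 0.01 for lipid hydrolases, -0.04 for the V-ATPase, 0.03 for glycosidases and for MiT/TFE factors, 0.07 for enzyme sorting and for autophagy, -0.02 for other membrane proteins and -0.39 for the inhibitors, against 0.002 over all genes. In cancer cells the medians of the 9 lists lay between -0.10, for the V-ATPase, and 0.06, for the other proteases and for enzyme sorting.

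Among the other proteases, 8 of 13 were lower in cancer than in TME cells and 0 were higher. Of all 17503 genes tested, 25.3% were lower and 27.3% higher in cancer cells, which is the share to set beside each list that follows. Ctss, cathepsin S, which processes the invariant chain of MHC class II in antigen-presenting cells, stood at 18.4 ± 5.25 CPM in sedentary cancer cells and 312 ± 24.3 in sedentary TME cells (-4.47 ± 0.28 log2, edgeR adjusted p = 1.02e-10). Ctsc, which activates serine proteases of leukocyte granules, had -3.06 ± 0.24 (adjusted p = 1.87e-09), and Ctsf, at 1.73 ± 0.732 CPM in sedentary TME cells, had -5.03 ± 0.48. Under exercise in TME cells Ctsc had 1.51 ± 0.63 and Ctss 1.31 ± 0.56 (adjusted p = 0.586 each), and the difference between the effects was 1.31 ± 0.49 and 0.77 ± 0.55. With exercised libraries 8 and 9 left out, the exercise differences in TME cells were -0.07 ± 0.20 for Ctsc and -0.12 ± 0.16 for Ctss. Ctsh and Ctsa had exercise differences of opposite sign in the sorts, none of which passed. That of Ctsh was -0.23 ± 0.09 among cancer libraries and 0.25 ± 0.14 among TME libraries, and that of Ctsa was -0.19 ± 0.10 and 0.28 ± 0.16. Leaving out exercised TME libraries 8 and 9 gave TME values of 0.04 for Ctsh and -0.04 for Ctsa.

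Of the cathepsin inhibitors 6 of 9 were lower in cancer cells and 0 higher, against 25.3% and 27.3% of all genes. Cst3, the secreted cystatin C, averaged 17.1 ± 5.78 CPM in sedentary cancer cells and 114 ± 11.5 in sedentary TME cells (-3.18 ± 0.26, edgeR adjusted p = 3.07e-09), and Serpina3g had -4.98 ± 0.30. The exercise difference of Cst3 in TME cells was 0.85 ± 0.56, from 114 ± 11.5 to 209 ± 156 CPM, and -0.57 ± 0.15 without exercised TME libraries 8 and 9.

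The median difference between the sorts, cancer minus TME, was -0.67 log2 over the other proteases, -0.08 over glycosidases and sulfatases and -0.14 over lipid hydrolases and activators. Of 22 glycosidases and sulfatases 4 were higher and 6 lower in cancer cells, against 27.3% and 25.3% of all genes. The lower ones included Hexa (-0.93 ± 0.08), a subunit of beta-hexosaminidase, and the mannosidase gene Man2b1 (-0.81 ± 0.12). Of 14 lipid hydrolases and activators 1 was higher and 6 lower, with the phospholipase gene Pla2g15 at -4.37 ± 0.28 and Acp5, which encodes tartrate-resistant acid phosphatase, at -1.40 ± 0.17. Asah1, acid ceramidase, and Lipa, lysosomal acid lipase, did not pass between the sorts (0.26 ± 0.13 and -0.11 ± 0.12). Their exercise differences in TME cells were 0.70 ± 0.27 and 0.62 ± 0.28, with 0.00 ± 0.11 and -0.04 ± 0.08 in cancer cells. The TME values were 0.12 for Asah1 and 0.06 for Lipa without exercised libraries 8 and 9.

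Of 24 other lysosomal membrane proteins 6 were higher and 8 lower in cancer cells, against 27.3% and 25.3% of all genes. Laptm5, a lysosomal protein of leukocytes, had -4.13 ± 0.31 and Slc11a1, a metal ion transporter of macrophage phagosomes, -3.08 ± 0.26. Cd68, a LAMP family protein used as a macrophage marker, averaged 7.81 ± 1.91 CPM in sedentary cancer cells, 26.5 ± 3.01 in sedentary and 57.1 ± 36.6 in exercised TME cells. Slc11a1 had the widest exercise difference of this list in TME cells, 1.67 ± 0.53 log2 (edgeR adjusted p = 0.586), which was 0.40 ± 0.25 without exercised TME libraries 8 and 9.

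Of 19 V-ATPase subunits 3 were higher and 7 lower in cancer cells, against 27.3% and 25.3% of all genes. Atp6v0d2 had -4.01 ± 0.42 and Atp6v0b -0.73 ± 0.08. Atp6v0c, which forms part of the proton channel, averaged 7.50 ± 1.95 and 5.28 ± 1.26 CPM in sedentary and exercised cancer cells and 7.85 ± 3.32 and 11.1 ± 2.22 in sedentary and exercised TME cells, and its difference between the effects was 1.0 ± 0.33 (edgeR adjusted p = 0.559), and 0.82 ± 0.38 without exercised TME libraries 8 and 9. For enzyme sorting, 6 of 16 genes were higher and 3 lower in cancer cells, with the retromer subunit gene Vps35 at 0.97 ± 0.09 and Nagpa, which uncovers the mannose 6-phosphate tag, at -0.84 ± 0.12.

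Of 20 MiT/TFE factors and regulators of mTORC1 7 were higher and 5 lower in cancer cells, against 27.3% and 25.3% of all genes. Tfec, the family member found mainly in myeloid cells, averaged 0.271 ± 0.229 CPM in sedentary cancer cells and 3.83 ± 1.77 in sedentary TME cells (-4.21 ± 0.40). Mitf, a close relative of Tfeb, had 0.25 ± 0.11 (edgeR adjusted p = 0.0581), with an exercise difference of 0.46 ± 0.24 in TME cells (0.19 ± 0.26 without exercised libraries 8 and 9) and -0.09 ± 0.08 in cancer cells. Fnip1, a partner of folliculin in the control of TFEB, had 0.39 ± 0.08 between the sorts and 0.51 ± 0.17 in the difference between the effects (0.50 ± 0.19 without those libraries). Among 20 autophagy genes 5 were higher and 5 lower in cancer cells, with Gabarap at -0.62 ± 0.08.

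**Figure D5:**
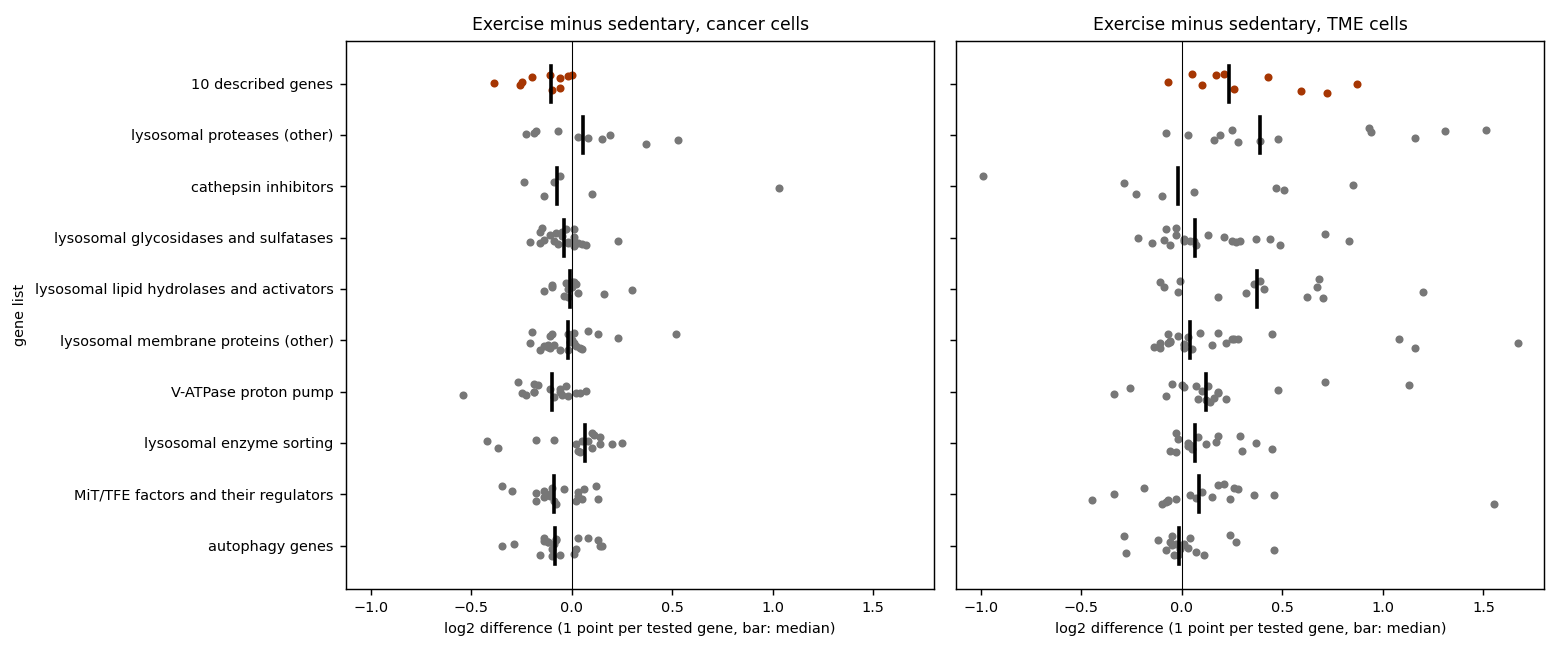
Log2 difference of exercise minus sedentary for every tested gene of the 10 described genes and of 9 lists of lysosomal, sorting and autophagy genes, in cancer cells (left) and TME cells (right); the vertical bar is the median of the list. In TME cells the median of the other lysosomal proteases is 0.39 and that of autophagy genes -0.02, and in cancer cells all medians lie between -0.10 and 0.06.

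Likeness of pattern was measured as the root mean square difference of centred log2 CPM over the 23 libraries, which share their sorts and treatments, so that it only describes these libraries. The closest profiles were Dab2 (0.123) and Sdcbp (0.160) for Ctsb, Maf (0.193) and Gm2a (0.201) for Lgmn, and Fcgrt (0.272) and Myo7a (0.275) for Dpp7. For Ctsk they were Gas6 (0.441) and Irf5 (0.450), for Ctsd Dcxr (0.144) and Hmg20b (0.151), and for Ctsl Hacd2 (0.125) and Kdm3a (0.130). For Lamp1 they were Gyg (0.121) and Sdcbp (0.122), for Lamp2 the V-ATPase subunit gene Atp6v1a (0.105) and Stag2 (0.107), and for Tfeb Emilin1 (0.130) and Os9 (0.187). These distances compare with an SD over the libraries of 0.36 log2 for Ctsb, 0.68 for Lgmn, 0.964 for Dpp7 and 1.187 for Ctsk. None of the 10 genes was among the 2 closest profiles of another.

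Gene positions are those of GRCm38 (mm10). Ctsb lies on chromosome 14 (63122462 to 63145923), Ctsd on chromosome 7 (142375911 to 142388038), Ctsl on chromosome 13 (64359337 to 64370890), Ctsk on chromosome 3 (95499256 to 95509362) and Ctsz on chromosome 2 (174427493 to 174439039). Lgmn lies on chromosome 12 (102394084 to 102439813), Dpp7 on chromosome 2 (25352276 to 25356359), Lamp1 on chromosome 8 (13159161 to 13175338), Lamp2 on chromosome X (38401357 to 38456454) and Tfeb on chromosome 17 (47737030 to 47792419). Annotated exons of Ctsb share bases with Fdft1, those of Ctsz with Nelfcd, those of Lamp1 with Grtp1, and those of Ctsd and Ctsl with predicted genes. As no strand setting is given, reads of these overlaps cannot be told apart.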

How the data were processed

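One deposited table holds raw counts by gene symbol (48397 symbols, 23 libraries), and all of its columns were used. The submitters' processing notes name STAR, featureCounts and mm10 as what the authors used to make these counts. The sources used here give no versions, gene annotation or strandedness. Per the labels' protocols, polyadenylated RNA extracted with Trizol went into a KAPA library kit.

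The work here used edgeR 4.0.16 under R 4.3.3: filterByExpr, TMM scaling and the robust quasi-likelihood test, two-sided, with Benjamini-Hochberg adjustment over all genes tested and a threshold of 0.05. Exercise was fitted on the 15 cancer and the 8 TME libraries separately, all other contrasts on all 23. Standard errors of edgeR were derived from its test, as the absolute log2 difference divided by the square root of the quasi-likelihood F statistic. CPM values use TMM factors of all libraries. Log2 CPM used a prior count of 2. DESeq2 1.42.0 and limma 3.58.1 (voom with quality weights) were among the alternatives, which the closing section lists. The procedure was tested on simulated data in which 200 genes were changed by 1 log2. It called 90.5% of them in cancer cells, 46.5% in TME cells and 57.5% in the difference between the effects. False calls numbered 15, 4 and 7. A change of this size can thus go uncalled, more often in TME cells and in the difference than in cancer cells. Smaller changes were not simulated. The counts were drawn independently for each gene, so a shift shared by many genes in some libraries was not simulated either. Gene positions and exonic lengths are from GENCODE M21 and promoter sequences from RefSeq.

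The members and gene lists were chosen with earlier results of these data known. Genes named are the 10 members, per list up to 3 with the smallest p in the difference between the effects and up to 2 with the widest called difference between the sorts, and the 2 closest profiles of each member, predicted genes left out. Not all are printed.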

Additional observations from a re-analysis of the deposited data

Results flagged for a closer look

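Outlying libraries were sought in 40 sets of values, the 10 genes in each of the 4 groups, with Dixon's ratio at its 95% critical value, which chance exceeds in about 1 of 20 sets. There were 3. Exercised cancer library 10 held 509 CPM of Ctsd, against 322 in the next library of its group, and 33.3 CPM of Tfeb, against 22.1 in the next. Sedentary cancer library 5 held 35.3 CPM of Tfeb, against 23.2 in the next. Without exercised cancer library 10 the exercise difference in cancer cells was -0.21 log2 for Ctsd and -0.16 for Tfeb, and without sedentary cancer library 5 it was 0.14 for Tfeb. None of these differences passed the threshold by edgeR's quasi-likelihood test.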

How the results depend on the processing

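Alternatives were RLE size factors, no filter on counts, a minimum mean of 1 CPM, DESeq2, limma voom with quality weights, mitochondrial transcripts left out, the replicate number as a block, all 23 libraries in 1 fit (for exercise), sedentary TME libraries 4 and 6 left out and each library left out in turn. Leaving out exercised TME libraries 8 and 9 was chosen after seeing the data. In the difference between the effects, limma voom called 2 of the 10 genes against 0, and with each library left out in turn the count ran from 0 to 2. In exercise in cancer cells, Ctsz was -0.06 with limma voom, -0.05 with the replicate block and -0.06 to 0.05 with a library left out, Lamp2 was 0.00 with the block, and Ctsd was -0.21 to 0.00 with a library left out. Tfeb was 0.01 with no filter, 0.08 with the block, 0.02 with all 23 libraries and -0.16 to 0.14 with a library left out. In exercise in TME cells, Ctsd was -0.01 to 0.10 with a library left out, and without libraries 8 and 9 Lgmn was -0.25, Lamp1 -0.18 and Tfeb 0.09. In the difference between the effects, the block gave -0.10 for Ctsd and -0.16 for Ctsz, leaving out libraries 8 and 9 gave -0.01 for Ctsz, -0.02 for Lgmn and 0.09 for Tfeb, and leaving out a library gave -0.23 to 0.06 for Tfeb. Lamp1 between the sorts was 0.04 without libraries 8 and 9, over both treatments and in exercised mice, and in sedentary mice -0.01 without libraries 4 and 6 and 0.00 to 0.08 with a library left out. The cause of these changes was not tested. Between the sorts 9 to 10, 6 to 8 and 7 to 9 of the 10 genes were called with a library left out (both treatments, sedentary, exercised). Of all genes, the same fits called 8599 to 9427, 5785 to 7503 and 5215 to 6635. Over all genes, exercise in cancer cells had 0 calls, 28 with no filter, 161 with DESeq2, 197 with limma voom, 1 with all 23 libraries and 0 to 43 with a library left out. In TME cells no filter gave 6 and DESeq2 41, and the difference between the effects had 2 with DESeq2, 40 with limma voom, 14 with the block and 0 to 52 with a library left out. In sedentary mice 7142 genes differed between the sorts, and 4323 without TME libraries 4 and 6. In exercised mice 6456 did, and 3517 with the block. Replicate numbers were not taken as pairs: same-numbered cancer and TME libraries had correlations of their deviations of 0.144 to 0.243 in exercised and -0.06 to 0.05 in sedentary mice, and 2 of 7 TME libraries correlated best with their own number. With the block 0, 0, 0, 9, 8 and 7 of the 10 genes were called in the 6 comparisons, and 0, 0, 14, 7360, 6178 and 3517 of all genes. Counts as low as 45 (Ctsk) and 68 (Dpp7) a library limit these genes in cancer cells.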

Other observations

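Exercised cancer library 10 held the highest value of its group in 7 of the 10 genes (Ctsb, Ctsd, Ctsl, Ctsz, Lgmn, Lamp2 and Tfeb), against 21.6% of all genes tested, and the lowest value of Ctsk. Exercised cancer library 7 held the lowest value in 5 of the 10 (Ctsb, Ctsd, Ctsl, Lgmn and Lamp1), against 16.4% of all genes. The summed macrophage markers stood at 125 CPM in library 10 and 94.6 in library 7, within the 94.1 to 185 CPM of the group. The choice of these libraries followed from their values.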
